A study of Mus musculus with 24 samples.

Results

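The genes described here are 35 mouse genes for lysosomal enzymes, lysosomal membrane proteins and the receptors that sort enzymes to the lysosome, out of 57126 genes in the count files. They were chosen by symbol from a list that left out the cathepsins, the proton pump and the glycolipid enzymes, and all 35 were found by gene ID. RNA was counted in cerebellum and hippocampus of 12 mice of strain BALB/cNctr-Npc1m1N/J, which gave 24 libraries in 6 groups of 4. The Npc1+/+ vehicle mice were 4 females aged postnatal day 65. The Npc1-/- vehicle mice were 3 males and 1 female, and the Npc1-/- dipyridamole mice were 2 males and 2 females, all aged postnatal day 63. Npc1-/- mice carry the germline mutation Npc1m1N, which removes the lysosomal cholesterol exporter NPC1, and are a model of Niemann-Pick disease type C. Both vehicle groups were injected with PBS:PEG400, and the treated mice with 30 mg/kg dipyridamole in the same carrier, intraperitoneally on 5 days per week from postnatal day 28. No dipyridamole-treated Npc1+/+ group was analysed here. The Npc1+/+ mice were all female and older than every Npc1-/- mouse. Age and genotype cannot be told apart. Sex was a term in the fit of each tissue and, by tissue, in the fit between tissues, estimated from the Npc1-/- mice. The fit of the Npc1+/+ mice alone had no sex term.

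The lysosome breaks down glycans, proteins, lipids and nucleic acids with acid hydrolases. Most of these enzymes are made in the endoplasmic reticulum, tagged with mannose 6-phosphate and carried to the lysosome by the receptors encoded by M6pr and Igf2r, while sortilin (Sort1) carries prosaposin and other cargo. The membrane is lined by the glycoproteins LAMP1 and LAMP2 and holds channels and exporters for calcium, cystine and sialic acid. In brain, loss of single hydrolases causes mucopolysaccharidoses, glycoproteinoses and neuronal ceroid lipofuscinoses. Microglia, the phagocytes of the brain, are rich in lysosomes.

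Library totals ran from 1.83 M to 11.6 M counts (median 7.98 M). The cerebellum of Npc1-/- vehicle replicate 2 was the shallowest, and that mouse's hippocampus had 3.84 M. Npc1 was read in all libraries and was lower in every Npc1-/- library (13.4 to 37.5 CPM, counts scaled by the TMM-adjusted library total) than in any Npc1+/+ library (63.6 to 107 CPM). Where its amplicon lies relative to the mutation is not known from the sources used here. The tissue labels matched their markers. Gabra6, a granule cell receptor subunit, read 143 to 464 CPM in cerebellum and at most 0.464 CPM in hippocampus, and Neurod6, a factor of hippocampal pyramidal neurons, read 251 to 957 CPM in hippocampus and at most 14.1 CPM in cerebellum. The hippocampus of Npc1-/- dipyridamole replicate 4 stood apart, with a sum of 696 CPM over 8 markers of hippocampal principal neurons against 1667 to 1960 CPM in the other treated mice. The labels give it the same ion code as the cerebellar library of its mouse, the only code that 2 libraries share, and its part in this difference was not tested. After removal of this library and of the hippocampus of Npc1-/- vehicle replicate 2 (an alternative added once the data had been seen), the same number of the 35 genes passed each hippocampal test as with them (5, 0 and 5). The sum of 8 choroid plexus markers varied within every group and ran from 52.4 to 8058 CPM over the libraries, and its part in the values of the 35 genes was not tested. In bulk tissue, fewer cells of a type and less RNA per cell cannot be told apart.

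The TFEB family of transcription factors is known to bind CACGTG, most often as GTCACGTG or its reverse complement, in promoters of many lysosomal genes. Both letter strings were searched on both strands from 250 bases before to 50 bases after the start in RefSeq promoters (build GRCm38.p6), which gave 32 promoters for 29 of the 35 genes. Every GTCACGTG holds the shorter string. The search left out a chromosome that holds none of the 35 genes, and promoters of any other length. CACGTG was in a promoter of 8 of the 29 genes (27.6%), against 8.09% of the 27025 genes of the promoter table that were searched. GTCACGTG was in 7 of 29 (24.1%), against 2.55%. The 100 bases before the start are shown for the 2 genes with the largest differences by genotype in cerebellum, for the 1 gene with a motif among those that passed that test, and for 2 genes with several motifs that did not pass it. In build GRCm38.p6 they lie at chr10:117282273-117282372 (Lyz2, minus strand), chr5:100719717-100719816 (Hpse, minus strand), chr11:101069994-101070093 (Naglu, plus strand), chr8:3500419-3500518 (Mcoln1, plus strand) and chr8:13159061-13159160 (Lamp1, plus strand). Capitals mark CACGTG.
Lyz2: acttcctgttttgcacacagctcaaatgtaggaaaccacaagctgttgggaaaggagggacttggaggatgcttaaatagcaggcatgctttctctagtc
Hpse: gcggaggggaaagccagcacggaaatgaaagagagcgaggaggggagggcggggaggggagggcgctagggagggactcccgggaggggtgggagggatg
Naglu: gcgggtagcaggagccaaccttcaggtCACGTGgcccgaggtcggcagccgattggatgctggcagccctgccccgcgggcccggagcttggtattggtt
Mcoln1: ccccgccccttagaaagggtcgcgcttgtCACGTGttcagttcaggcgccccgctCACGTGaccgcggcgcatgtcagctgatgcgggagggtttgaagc
Lamp1: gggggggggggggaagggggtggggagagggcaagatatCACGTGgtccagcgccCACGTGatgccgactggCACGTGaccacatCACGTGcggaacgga

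Of the 10 genes that were higher in Npc1-/- cerebellum, 9 had a promoter in the table, and CACGTG was found in 1 of them, Naglu, 73 bases before its start. Among the other 20 genes with a promoter, 7 held CACGTG, including Mcoln1 (71 and 45 bases before its start), Lamp1 (4 matches between 61 and 15 bases before), Sgsh, Igf2r, Gla, Gaa and the second promoter of Cln3. A match is a description of letters and not a site, and binding was not measured.

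Without NPC1, 10 of the 35 genes were higher in cerebellum and none was lower. The 10 were Lyz2, Hpse, Laptm5, Grn, Man2b1, Galns, Naglu, Gusb, Fuca1 and Lamp2. In the fit across all genes (edgeR quasi-likelihood test, sex as covariate, Benjamini-Hochberg adjusted p under 0.05), 34 of the 35 passed the filter on low counts. Of the 12921 genes tested, 5.91% were called higher, and only 522 were called lower. The median log2 fold change was 0.28 over the 34 genes and 0.01 over all genes. In hippocampus 5 of 33 tested genes were higher (Lyz2, Hpse, Laptm5, Grn and Man2b1) and none was lower. Of 12740 genes, 1.02% were called higher there and only 76 lower. The medians were 0.23 over the 33 genes and -0.01 over all. Levels in the 4 Npc1-/- vehicle libraries lay wholly above the 4 Npc1+/+ libraries for 13 genes in cerebellum, where 10.6% of all genes did so, and for 10 genes in hippocampus, where 6.29% did so. The 5 genes called in both tissues differed widely in size, from about 2-fold for Man2b1 in hippocampus (log2 fold change 0.99) to 45.3-fold for Hpse in cerebellum.

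Together the 35 genes took 0.304% ± 0.012 of all counts (SD, n = 4) in Npc1+/+ cerebellum and 0.402% ± 0.013 in Npc1-/- vehicle cerebellum. Without Lyz2 the shares were 0.303% ± 0.012 and 0.351% ± 0.006, so the groups stayed apart (0.288 to 0.317% and 0.343 to 0.356%). In hippocampus the shares were 0.327% ± 0.017 and 0.345% ± 0.007, and their ranges overlapped (0.304 to 0.343% and 0.337 to 0.353%).

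**Figure D1:**
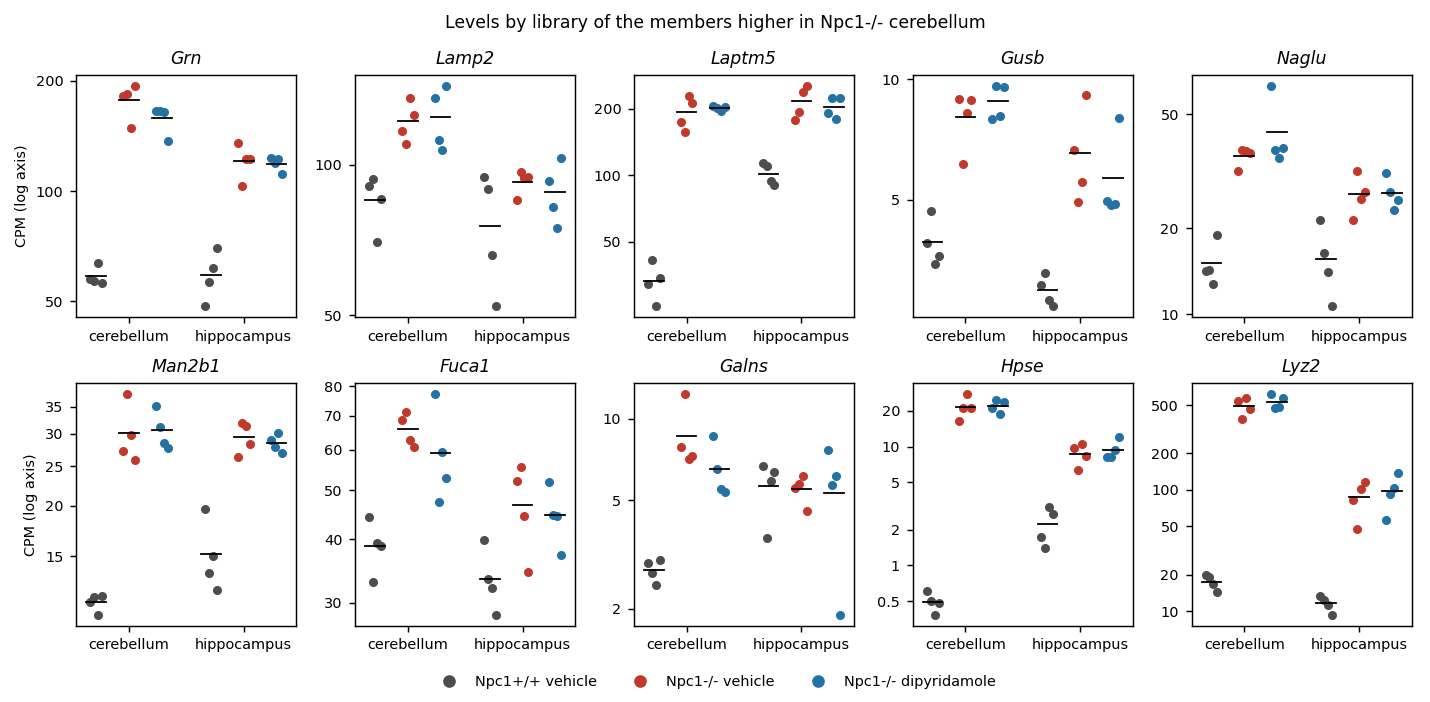
Levels in CPM (log axis) of the 10 genes called higher in Npc1-/- cerebellum, 1 point a library and a bar at each group mean, in cerebellum and hippocampus. In cerebellum all Npc1-/- libraries lie above the Npc1+/+ libraries for each gene, and the treated and untreated Npc1-/- groups overlap.

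These calls rested in part on replicate 3, the only female of the Npc1-/- vehicle group. Sex is a term of the fit, and its part in the calls lost without that mouse was not tested. Without that mouse 5 genes remained called in cerebellum (Lyz2, Hpse, Laptm5, Grn and Man2b1) and 1, Lyz2, in hippocampus. In females alone (4 Npc1+/+, 1 Npc1-/- vehicle and 2 treated mice, with the lone mouse assumed to vary like the others), 9 and 2 genes were called.

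Lyz2 encodes lysozyme M, which cleaves bacterial cell walls and is made by macrophages and microglia. In cerebellum it read 19.7, 19, 16.9 and 14.4 CPM in the Npc1+/+ libraries and 545, 383, 570 and 461 CPM in the Npc1-/- vehicle libraries. In hippocampus it read 13.3, 12.4, 11.3 and 9.36 CPM against 83.2, 47.5, 101 and 117 CPM. The groups were far apart in both tissues. Lyz2 rose by 4.89 ± 0.19 (log2 fold change ± SE, adjusted p = 2.39e-11) in cerebellum and by 3.30 ± 0.31 (adjusted p = 0.000179) in hippocampus. Its near-identical neighbour Lyz1 could share reads with it. Lyz1 itself read at most 2.88 CPM in any library. Of the other 2 genes of this group, the lysosomal phosphatase gene Acp2 read 76.4 to 83.5 CPM in Npc1+/+ and 91.5 to 105 CPM in Npc1-/- vehicle cerebellum, without overlap (log2 fold change 0.28 ± 0.15, adjusted p = 0.268). Pla2g15, the lysosomal phospholipase A2 gene, read 14.5 to 22.8 and 15.4 to 21.5 CPM, and the groups overlapped.

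Of 9 genes for the breakdown of glycosaminoglycans, 4 rose in cerebellum (Hpse, Naglu, Gusb and Galns) and 1, Hpse, in hippocampus. Hpse encodes heparanase, which cuts heparan sulphate chains internally. It was close to the limit of detection in Npc1+/+ cerebellum, with 3 to 7 counts a library, at 0.608, 0.5, 0.385 and 0.484 CPM. The Npc1-/- vehicle libraries read 16.4, 21.1, 27.6 and 21.1 CPM. In hippocampus the values were 1.72, 1.41, 3.09 and 2.72 CPM against 9.66, 6.32, 10.6 and 8.41 CPM. No Npc1-/- library overlapped an Npc1+/+ library of its tissue. Hpse rose by 5.50 ± 0.29 (adjusted p = 7.96e-10) in cerebellum and by 2.27 ± 0.32 (adjusted p = 0.00225) in hippocampus.

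Naglu, whose enzyme removes terminal N-acetylglucosamine from heparan sulphate, read 14.2, 14.3, 12.8 and 18.9 CPM in Npc1+/+ cerebellum. In Npc1-/- vehicle cerebellum it read 31.6, 37.5, 37.3 and 36.5 CPM. All 4 Npc1-/- values were above the highest Npc1+/+ value, and Naglu rose by 1.10 ± 0.23 (adjusted p = 0.00377). Gusb, the beta-glucuronidase gene, read 3.91, 4.7, 3.46 and 3.63 CPM against 8.94, 6.16, 8.23 and 8.9 CPM in cerebellum. It rose by 1.09 ± 0.25 (adjusted p = 0.00994), and in hippocampus the value was 1.22 ± 0.35 and did not pass (adjusted p = 0.124). With no sex term, and with DESeq2, Gusb did pass in hippocampus. Galns encodes a sulphatase of keratan sulphate and chondroitin 6-sulphate. It read 2.95, 2.7, 2.44 and 3.03 CPM against 7.87, 12.3, 7.11 and 7.32 CPM in cerebellum, where the highest value came from the shallow replicate 2. It rose there by 1.28 ± 0.28 (adjusted p = 0.00622), and in hippocampus the groups overlapped (3.63 to 6.68 and 4.56 to 6.16 CPM). Without replicate 3 of Npc1-/- vehicle the cerebellar adjusted p was 0.213 for Naglu, 0.112 for Gusb and 0.13 for Galns.

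The other genes of this group did not pass the test. Arsb, the arylsulphatase B gene, did not overlap in cerebellum (1.45 to 1.82 against 2.98 to 10.3 CPM), but its fold change of 1.32 ± 0.43 had an adjusted p of 0.0575. Leaving out the shallow Npc1-/- vehicle replicate 2, or replicate 1 of that group, brought Arsb under the threshold. So did a fit with no sex term, DESeq2, and no filter on low counts. In hippocampus Arsb read 3.32 to 4.61 against 6.65 to 7.7 CPM, also without overlap (0.79 ± 0.35, adjusted p = 0.376). Sgsh, Ids and Hgsnat, which encode heparan N-sulphatase, iduronate 2-sulphatase and the acetyltransferase of the lysosomal membrane, had log2 fold changes of 0.45 ± 0.27, -0.13 ± 0.30 and 0.06 ± 0.18 in cerebellum. Idua, the alpha-iduronidase gene, had 3 counts in all 24 libraries and could not be tested. Part of the exons of several genes overlap a gene on the opposite strand, 21.6% of the exonic bases of Sgsh (Card14), 12.6% of Acp2 (Ddb2) and 9.31% of Lamp1 (Grtp1), and the unstranded counts do not separate such pairs.

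Of 6 genes for glycosidases and aspartylglucosaminidase, Man2b1 and Fuca1 rose in cerebellum. Man2b1 encodes lysosomal alpha-mannosidase. It read 11.6, 11.9, 10.8 and 12 CPM in Npc1+/+ cerebellum and 27.2, 37.5, 29.8 and 25.9 CPM in Npc1-/- vehicle cerebellum. In hippocampus it read 19.6, 13.7, 15 and 12.4 CPM against 26.3, 31.9, 31.3 and 28.4 CPM. The Npc1-/- values reached nearly the same level in both tissues. The Npc1+/+ values were lower in cerebellum, but Man2b1 did not pass the test of that tissue difference. Man2b1 rose by 1.28 ± 0.19 (adjusted p = 0.000244) and 0.99 ± 0.20 (adjusted p = 0.0211). In hippocampus the call was lost without any of 5 libraries: Npc1+/+ replicates 2 and 3, Npc1-/- vehicle replicate 3, and dipyridamole replicates 1 and 2 (adjusted p of 0.0676, 0.0664, 0.329, 0.0565 and 0.0562).

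Fuca1, the alpha-fucosidase gene, read 44.2, 33, 39.4 and 38.8 CPM against 68.8, 71.4, 62.8 and 60.8 CPM in cerebellum. It rose by 0.69 ± 0.19 (adjusted p = 0.0319). That call held in 5 of the 12 fits that left out 1 library, and it was lost without any of Npc1+/+ replicates 2, 3 and 4, Npc1-/- vehicle replicate 3 and dipyridamole replicates 2, 3 and 4, with adjusted p from 0.0501 to 0.257. Gaa, the acid alpha-glucosidase gene, read 98.1 to 131 CPM against 144 to 227 CPM without overlap (0.35 ± 0.18, adjusted p = 0.235). With no sex term Gaa did pass. Gla and Manba, for alpha-galactosidase A and beta-mannosidase, overlapped between the groups. Aga, the aspartylglucosaminidase gene, stood at 0.718 to 2.57 CPM in cerebellum, with 5 to 17 counts a library, and was too low to be tested in hippocampus.

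Of 5 genes for proteins of neuronal ceroid lipofuscinosis and sphingolipid activators, 1 rose. Grn encodes progranulin, which is split into granulins in the lysosome. It read 57.5, 57, 63.5 and 56.2 CPM in Npc1+/+ cerebellum and 182, 184, 149 and 194 CPM in Npc1-/- vehicle cerebellum. In hippocampus it read 48.6, 56.5, 61.6 and 70 CPM against 135, 103, 122 and 122 CPM. Grn started at the same level in both tissues and was higher in every Npc1-/- library. It rose by 1.45 ± 0.15 (adjusted p = 3.34e-06) in cerebellum and by 1.01 ± 0.17 (adjusted p = 0.00819) in hippocampus. Psap, the precursor of the saposins and a binding partner of progranulin, read 580 to 731 CPM in Npc1+/+ and 551 to 752 CPM in Npc1-/- vehicle cerebellum. Its fold change there was -0.03 with a 95% interval from -0.39 to 0.32. Ppt1 and Tpp1, for a thioesterase and a peptidase, had cerebellar fold changes of 0.02 ± 0.17 and -0.09 ± 0.21, and Cln3, for a lysosomal membrane protein, had -0.52 ± 0.29 (adjusted p = 0.29).

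Of 6 genes for membrane glycoproteins and LAPTM proteins, Laptm5 and Lamp2 rose in cerebellum. Laptm5 encodes a transmembrane protein of lysosomes in blood-derived cells and microglia. It read 32, 41.1, 25.6 and 34.4 CPM in Npc1+/+ cerebellum and 174, 157, 227 and 212 CPM in Npc1-/- vehicle cerebellum. In hippocampus it read 113, 110, 93.6 and 89.8 CPM against 178, 193, 238 and 254 CPM. The Npc1-/- levels were alike in both tissues, while the Npc1+/+ levels were lower in cerebellum. Laptm5 rose by 2.64 ± 0.18 (adjusted p = 2.24e-08) in cerebellum and 1.13 ± 0.18 (adjusted p = 0.00442) in hippocampus. Its relatives Laptm4a and Laptm4b, which are made in many cell types, had cerebellar fold changes of 0.06 ± 0.33 and -0.19 ± 0.20.

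Lamp2 encodes a major membrane glycoprotein that also serves as receptor of chaperone-mediated autophagy. It read 90.7, 93.8, 69.9 and 85.5 CPM against 117, 110, 136 and 126 CPM in cerebellum and rose by 0.62 ± 0.17 (adjusted p = 0.0299). The call held in 6 of the 12 fits with 1 library left out and was lost without any of Npc1+/+ replicates 3 and 4, Npc1-/- vehicle replicates 3 and 4 and dipyridamole replicates 2 and 4, with adjusted p from 0.0502 to 0.322. Lamp1, its partner in the membrane, read 155 to 209 CPM and 142 to 235 CPM, and the groups overlapped (0.29 ± 0.21, adjusted p = 0.428). Scarb2, for a membrane glycoprotein that also serves as a sorting receptor, had a fold change of 0.15 ± 0.18.

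None of the 3 genes for a channel and exporters passed the test in either tissue. Mcoln1, the lysosomal calcium channel gene, had fold changes of 0.27 ± 0.19 in cerebellum and 0.36 ± 0.18 in hippocampus. Ctns, the cystine exporter gene, read 33.2 to 43.2 CPM in Npc1+/+ and 44.3 to 61.6 CPM in Npc1-/- vehicle hippocampus without overlap (0.38 ± 0.19, adjusted p = 0.433). Slc17a5, the sialic acid exporter gene, had 0.04 ± 0.28 and -0.04 ± 0.26. None of the 3 sorting receptor genes passed either. M6pr and Igf2r had cerebellar fold changes of 0.27 ± 0.27 and -0.01 ± 0.16. Sort1 read 50.7, 36.2, 29.6 and 46.5 CPM in Npc1+/+ and 23.4, 27.2, 27.6 and 29 CPM in Npc1-/- vehicle cerebellum. It was the only gene of the 35 with all Npc1-/- vehicle libraries below all Npc1+/+ libraries in cerebellum, where 10.1% of all genes tested were so placed, at -0.62 ± 0.28 (adjusted p = 0.183).

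**Figure D2:**
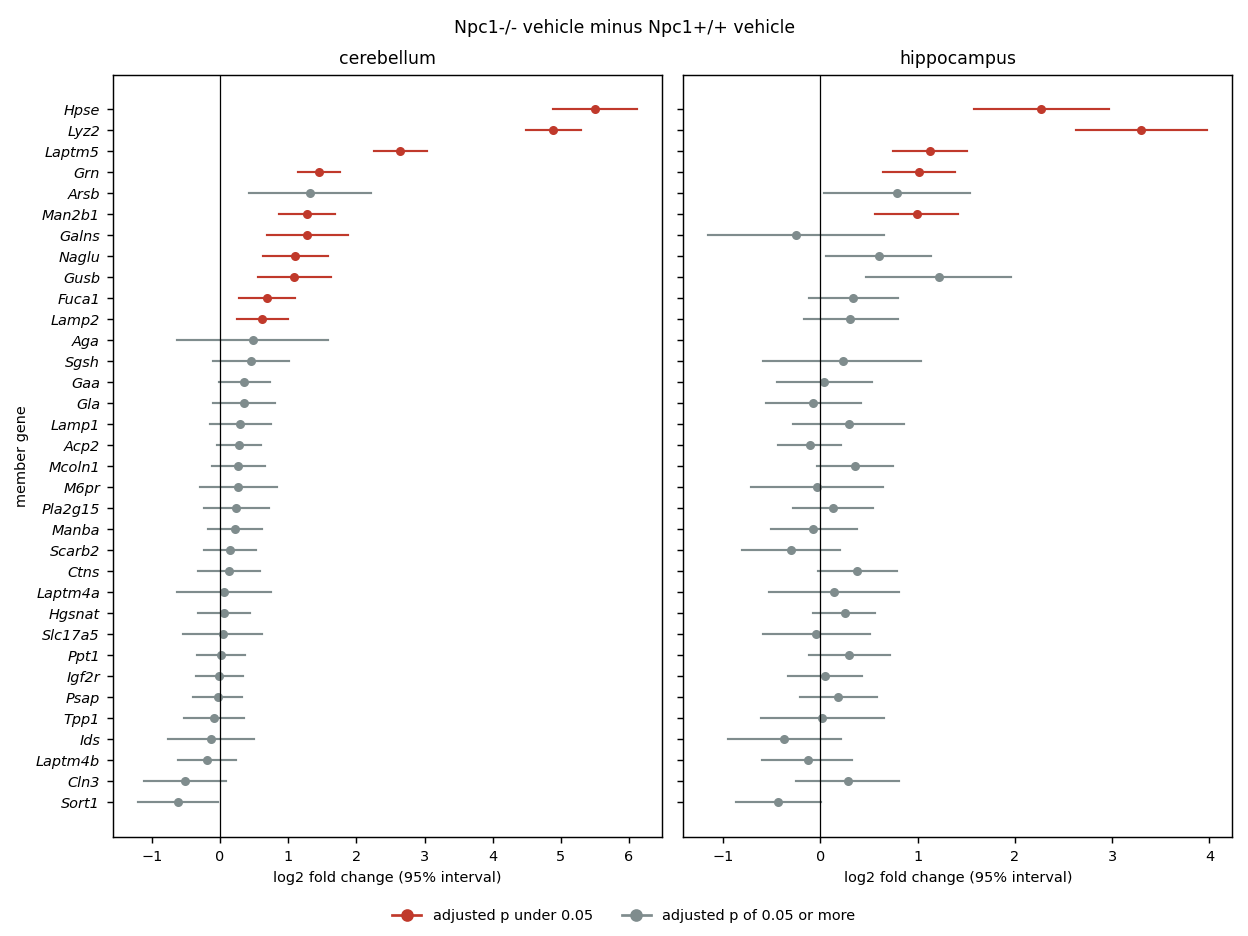
Log2 fold change of Npc1-/- vehicle over Npc1+/+ vehicle with its 95% interval for each tested gene, in cerebellum and hippocampus, ordered by the cerebellar value. Points in red passed the adjusted p: 10 in cerebellum and 5 in hippocampus, all to the right of 0.

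The difference between the tissues in the response to Npc1 loss was tested over all 24 libraries with the animal as a block. It passed for 3 of 34 genes, Laptm5, Hpse and Lyz2, all with the smaller rise in hippocampus. Of 13436 genes tested, 0.543% passed with a negative difference (hippocampus minus cerebellum). That share also holds genes that fell further in hippocampus, such as the oligodendrocyte gene Mal (difference -2.15, hippocampal log2 fold change -2.71). The log2 fold change in hippocampus minus that in cerebellum was -1.51 ± 0.21 for Laptm5 (adjusted p = 0.00168), -3.15 ± 0.46 for Hpse (adjusted p = 0.00187) and -1.60 ± 0.33 for Lyz2 (adjusted p = 0.0209). Without Npc1-/- vehicle replicate 3 none passed (0.085, 0.085 and 0.514). The Lyz2 call was also lost without Npc1+/+ replicate 2 or 3 or dipyridamole replicate 2 (0.0528, 0.0658 and 0.0521). For Grn (-0.40 ± 0.21) and Man2b1 (-0.26 ± 0.26) the test did not pass, with adjusted p of 0.632 and 0.901. Galns differed by -1.57 ± 0.48 (adjusted p = 0.18), and it did pass with no tissue by sex term.

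Markers of microglia moved with the called genes. The sum of 15 microglia markers, of which Itgam was at 0 in every group and C1qa at or near 0, was 62 to 74.4 CPM in Npc1+/+ cerebellum and 201 to 332 CPM in Npc1-/- vehicle cerebellum. In hippocampus it was 186 to 229 and 292 to 385 CPM. Of 13 tested markers 9 rose in cerebellum and 3 in hippocampus, among them C1qc, a complement subunit, by 3.54 ± 0.37 (adjusted p = 4.02e-06) and 1.82 ± 0.28 (adjusted p = 0.00383). Of 11 tested markers of activated microglia 10 rose in cerebellum and 7 in hippocampus. Their sum was 245 to 293 and 707 to 929 CPM in cerebellum, and 184 to 221 and 292 to 366 CPM in hippocampus. Among them, Clec7a read 0.605 to 1.1 CPM in Npc1+/+ cerebellum, and Cst7 and Ccl3 were at 0 there. Other listed genes thus made up nearly all of that sum, and their cell source was not tested. The median log2 fold change of the tested markers was 3.61 in cerebellum and 2.14 in hippocampus.

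Set against the microglia marker sum, the genes differed. Per 100 CPM of summed markers, Laptm5 stood at 49.4 ± 10.4 CPM (SD, n = 4) in Npc1+/+ and 75.6 ± 19.1 CPM in Npc1-/- vehicle cerebellum, and Grn at 86.8 ± 8 and 69.3 ± 16.4 CPM. The groups overlapped for Laptm5 and Grn. Man2b1 stood at 17.1 ± 1.49 and 11.5 ± 1.5 CPM, lower in each Npc1-/- library than in any Npc1+/+ library. In hippocampus the order was the other way for Man2b1 and Grn. Man2b1 stood at 7.12 ± 0.974 and 8.75 ± 0.623 CPM and Grn at 28.3 ± 6.84 and 36.2 ± 7.11 CPM, and the groups overlapped. In cerebellum Lyz2 went from 26.1 ± 5.38 to 195 ± 66 CPM and Hpse from 0.737 ± 0.181 to 8.3 ± 1.76 CPM. The ratios of Lyz2 (19.4 to 31.8 and 115 to 271 CPM) and Hpse (0.56 to 0.98 and 6.34 to 10.6 CPM) did not overlap between the groups. In hippocampus the ratios of Laptm5 (42.8 to 51.7 and 57.7 to 75 CPM) did not overlap. Those of Lyz2 (5.02 to 5.81 and 14.2 to 34.6 CPM) and Hpse (0.658 to 1.46 and 1.89 to 3.31 CPM) did not either. Lamp1, whose own level overlapped between the groups, stood at 274 ± 53.3 and 78.7 ± 30.4 CPM in cerebellum. A ratio thus also falls where only the marker sum rises. Markers of blood, neutrophils and monocytes summed to at most 23.6 CPM in any library, with Ly6c2 at 0 in 5 of 6 groups and Hbb-bs at 0 in all. Only 2 of these 9 markers could be tested in cerebellum, and Alas2, a heme synthesis gene of red blood cell precursors, fell by 1.70 (adjusted p = 0.0389) while the other read 2.24 and did not pass. The part of cell numbers in these differences was not tested.

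**Figure D3:**
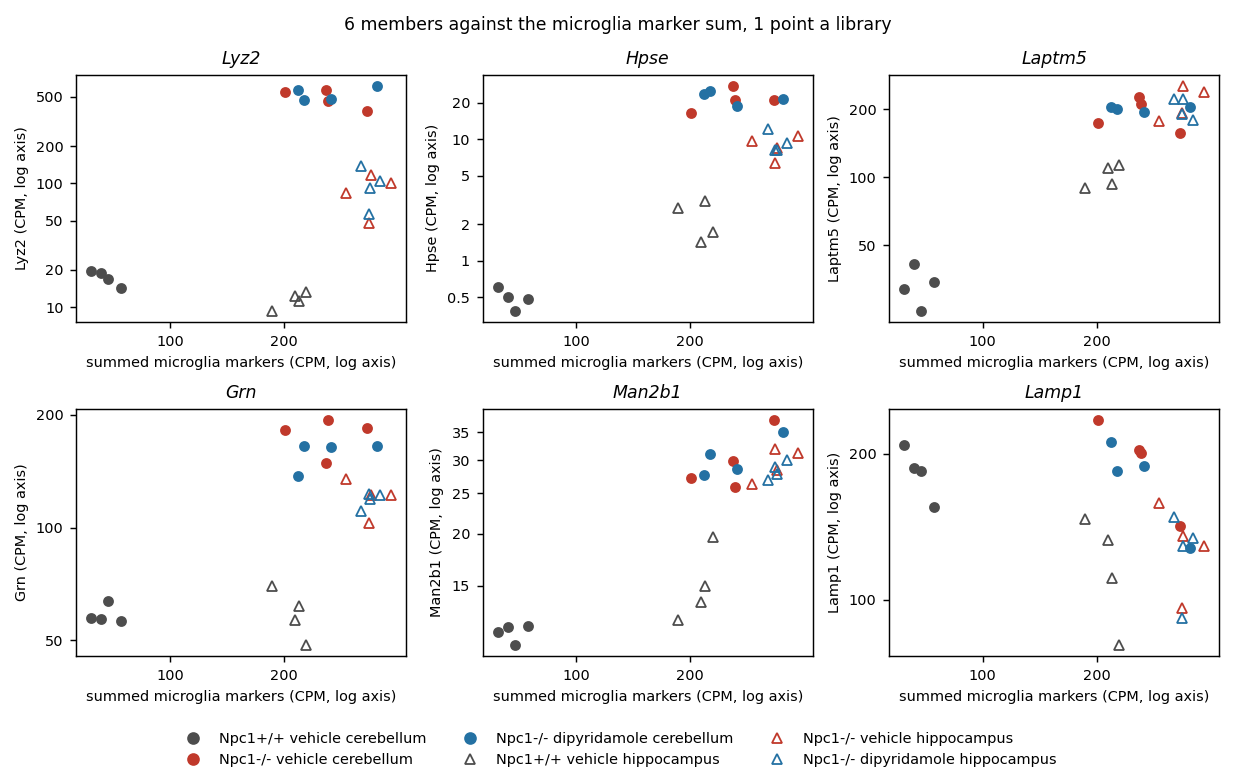
Levels of Lyz2, Hpse, Laptm5, Grn, Man2b1 and Lamp1 (CPM, log axis) against the sum of 15 microglia markers (CPM, log axis), 1 point a library, circles for cerebellum and triangles for hippocampus. Npc1+/+ hippocampus, with marker sums of 186 to 229 CPM, reads 89.8 to 113 CPM for Laptm5 and 9.36 to 13.3 CPM for Lyz2. Npc1-/- vehicle cerebellum, with marker sums of 201 to 332 CPM, reads 157 to 227 CPM for Laptm5 and 383 to 570 CPM for Lyz2. These groups differ in both tissue and genotype, and their marker sums overlap only in part.

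Other cell types moved too. In cerebellum all 7 Purkinje cell markers fell, with Car8, a carbonic anhydrase-related protein of these cells, at 666 to 865 CPM in Npc1+/+ and 23.6 to 57.4 CPM in Npc1-/- vehicle libraries. The astrocyte filament gene Gfap rose by 3.78 ± 0.18 (adjusted p = 1.91e-10) in cerebellum and 1.80 ± 0.18 (adjusted p = 0.000225) in hippocampus. Of the 8 astrocyte markers 3 rose and 2 fell in cerebellum, and 2 rose in hippocampus. In hippocampus 8 of 9 oligodendrocyte markers fell, and their sum was 5066 to 6239 and 1206 to 1867 CPM. The part of these cells in the values of the 35 genes was not tested.

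The lysosomal genes left out of the 35 differed from list to list, and their counts stand beside the 5.91% of all genes called higher in cerebellum and 1.02% in hippocampus. In cerebellum 522 of all 12921 genes were called lower. Of 13 tested cathepsin genes 7 rose in cerebellum and none fell, with Ctss, a cathepsin of phagocytes, rising by 2.41 ± 0.22 (adjusted p = 8e-07). In hippocampus 2 of 12 rose. Of 12 tested glycolipid enzyme genes 2 rose in cerebellum, among them Hexa, for a lysosomal glycosidase subunit, by 1.29 ± 0.20 (adjusted p = 0.000382), and none in hippocampus. Of the proton pump 2 of 18 tested genes rose in cerebellum and 1 of 19 in hippocampus, and the list's median log2 fold changes were -0.03 and -0.10. The pump gene in both was Atp6v0d2, at 0 to 0.121 CPM in Npc1+/+ and 7.39 to 13.1 CPM in Npc1-/- vehicle cerebellum.

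Of 42 other lysosomal genes tested in each tissue, 8 rose and 1 fell in cerebellum, and 1 rose in hippocampus. That gene was Cd68, a membrane glycoprotein of phagocytes, with 3.89 ± 0.26 (adjusted p = 1.68e-08) and 2.11 ± 0.23 (adjusted p = 0.000407). Of 16 tested genes of the TFEB family and its regulators, 1 rose in cerebellum, Fnip2 (1.02 ± 0.25, adjusted p = 0.0121), and none in hippocampus, with list medians of -0.09 and -0.02. That share is near the 5.91% of all genes.

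Dipyridamole in Npc1-/- mice was followed by no called change of any of the 35 genes. In both tissues 0% of all genes passed the adjusted p (0 of 12921 in cerebellum and 0 of 12740 in hippocampus, edgeR quasi-likelihood test), as also with DESeq2 and limma-voom. At an unadjusted p under 0.05 there were 300 and 93 genes, none of them among the 35. No gene of the 35 had treated and untreated libraries apart, where 1.22% of all genes in cerebellum and 1.2% in hippocampus had. The median log2 fold change was 0.00 over 34 genes in cerebellum and -0.03 over 33 in hippocampus, with values from -0.27 to 0.36 and from -0.26 to 0.17.

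The 5 genes called in both tissues after Npc1 loss had fold changes by dipyridamole near 0. In treated cerebellum Lyz2 read 615, 475, 481 and 569 CPM, Laptm5 205, 201, 195 and 204 CPM, and Hpse 21.3, 24.8, 18.7 and 23.7 CPM. These values overlapped those of the vehicle group. The log2 fold change by dipyridamole was 0.10 for Lyz2 (95% interval -0.22 to 0.41), 0.03 for Laptm5 (-0.29 to 0.34), 0.00 for Hpse (-0.38 to 0.38), -0.12 for Grn (-0.37 to 0.14) and 0.07 for Man2b1 (-0.26 to 0.40). In treated hippocampus Lyz2 read 56.4, 92.5, 104 and 139 CPM, again overlapping the vehicle group. The intervals there were wider, -0.55 to 0.53 for Lyz2 and -0.54 to 0.54 for Hpse.

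The smallest unadjusted p in cerebellum belonged to Naglu (0.32, -0.07 to 0.70), Tpp1 (0.27, -0.09 to 0.63) and Cln3 (0.36, -0.14 to 0.86), each with an adjusted p of 1. Naglu read 63 CPM in treated replicate 1 and 35.2 to 38.1 CPM in the other treated libraries, against 31.6 to 37.5 CPM in the vehicle group. In hippocampus they belonged to Acp2 (0.17, -0.09 to 0.43), Sort1 (-0.22, -0.58 to 0.14) and Cln3 (-0.26, -0.69 to 0.17). Cln3 thus had values of opposite sign in the tissues, neither past the test. Intervals of this width do not show that the drug leaves these genes alone.

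**Figure D4:**
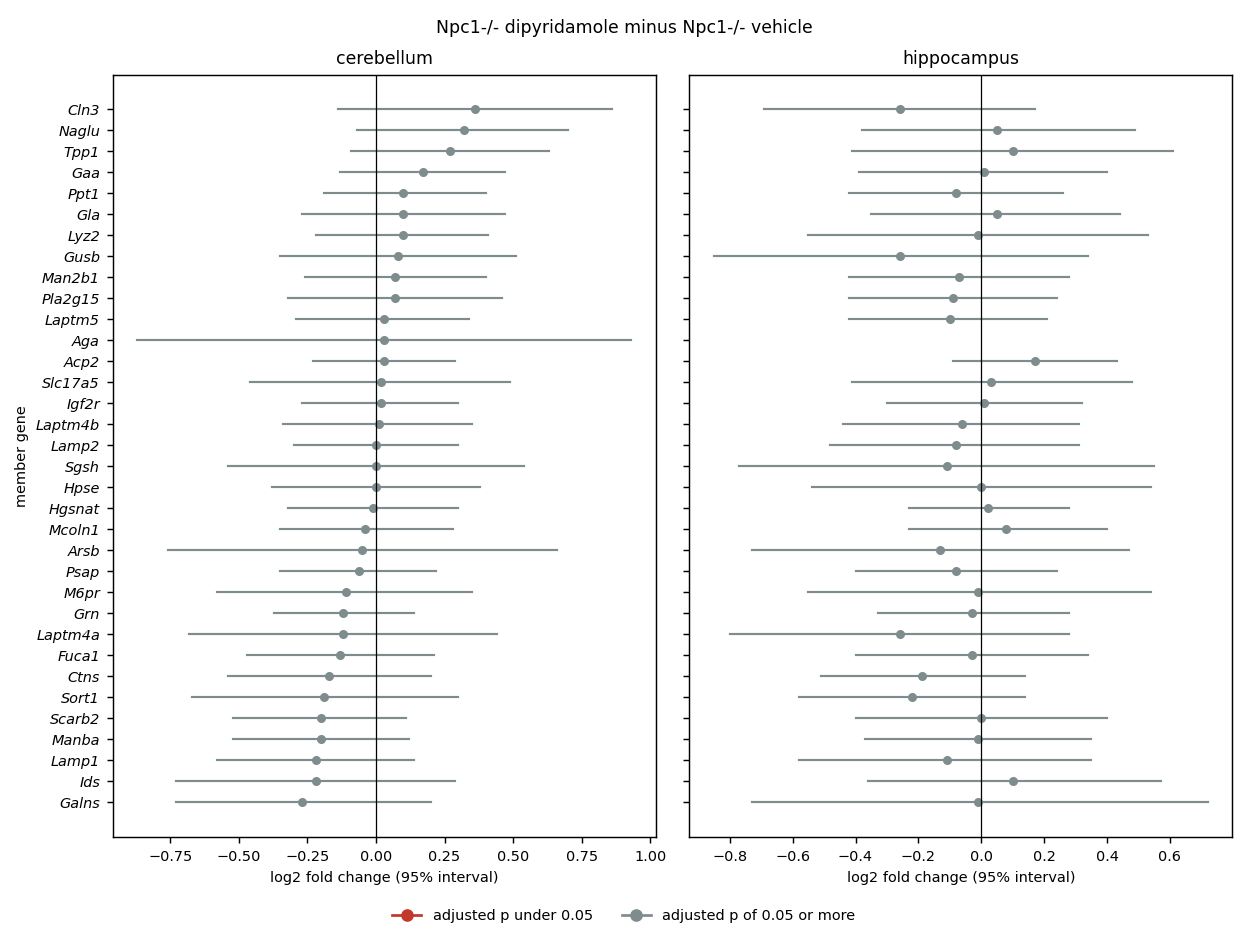
Log2 fold change of Npc1-/- dipyridamole over Npc1-/- vehicle with its 95% interval for each tested gene, in cerebellum and hippocampus, ordered by the cerebellar value. Every interval includes 0, and no gene passed the adjusted p.

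Treated Npc1-/- mice were also set against the same Npc1+/+ mice, so this comparison shares its controls with that of the vehicle mice. In cerebellum 12 of 34 genes were higher, where 8.13% of all genes were, and 1 was lower, where 6.29% were. The 12 were the 10 genes named for vehicle mice with Arsb (1.27 ± 0.37, adjusted p = 0.0269) and Gaa (0.52 ± 0.15, adjusted p = 0.0304). The gene that fell was Sort1, at 18, 31.1, 29.2 and 15.9 CPM in the treated libraries against 29.6 to 50.7 CPM (-0.81 ± 0.25, adjusted p = 0.0379), and treated replicate 2 overlapped the Npc1+/+ range. Leaving out treated replicate 4 left 8 genes called and ended the calls of Lamp2 (adjusted p = 0.138), Gaa (0.0821), Fuca1 (0.0988), Arsb (0.0669) and Sort1 (-0.54, 0.265). Other single libraries also ended calls. Sort1 was lost without Npc1+/+ replicate 1, 2 or 4 (0.0928, 0.0502 and 0.0823) or Npc1-/- vehicle replicate 3 or 4 (0.0668 and 0.0514). Gaa was lost without Npc1+/+ replicate 2 or 3 or treated replicate 3 (0.0526, 0.0944 and 0.165), and Arsb without any of Npc1+/+ replicates 2 to 4 or treated replicate 3 (0.0523, 0.0554, 0.0607 and 0.164). Fuca1 was lost without any of Npc1+/+ replicates 2 to 4, Npc1-/- vehicle replicate 3 or 4 or treated replicate 3, with adjusted p from 0.0514 to 0.142. In hippocampus the 5 genes of the vehicle comparison were higher, where 1.59% of all genes were, with Lyz2 at 3.29 ± 0.28, Hpse at 2.27 ± 0.29, Laptm5 at 1.03 ± 0.16, Grn at 0.99 ± 0.15 and Man2b1 at 0.92 ± 0.18. The Man2b1 call was lost without treated replicate 3 (adjusted p = 0.0593). Side by side, the vehicle and treated fold changes over Npc1+/+ were 4.89 and 4.99 for Lyz2, 2.64 and 2.67 for Laptm5 and 1.45 and 1.33 for Grn in cerebellum.

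In Npc1+/+ mice 16 of the 33 tested genes differed between the tissues, in both directions, and so did 4400 of all 12592 genes. Of 33 tested genes, 9 were higher in hippocampus, where 18.2% of 12592 genes were, and 7 were lower, where 16.7% were (same 4 mice, animal as block). The median log2 fold change over the 33 genes was -0.05. Laptm5 was higher by 1.63 ± 0.16 (adjusted p = 5.12e-05), Sort1 by 1.42 ± 0.20 (adjusted p = 0.000503), Slc17a5 by 1.11 ± 0.20 (adjusted p = 0.00249) and Gaa by 0.77 ± 0.14 (adjusted p = 0.00255). Sort1 read 98.2, 92, 125 and 112 CPM in hippocampus and 50.7, 36.2, 29.6 and 46.5 CPM in cerebellum, from the same mice in the same order. Ids (0.98 ± 0.19), Hpse (2.06 ± 0.44), Arsb (1.12 ± 0.30), Galns (1.00 ± 0.27) and Pla2g15 (0.63 ± 0.20) were the others on that side. Hippocampal Ids ran from 631 to 1142 CPM and overlapped the cerebellar 364 to 660 CPM.

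The 7 genes lower in hippocampus had log2 fold changes from -0.42 to -0.66. They were Lamp1 (118 ± 28.8 against 184 ± 22.4 CPM, SD, n = 4), Lyz2, Manba, Mcoln1, Igf2r, Ctns and Ppt1. Lyz2 was lower in hippocampus (-0.59 ± 0.18, adjusted p = 0.0312), whereas 11 of 13 tested microglia markers and Laptm5 were higher there. With 4 mice these calls depended on single animals: 9, 7, 6 and 13 genes passed without replicate 1, 2, 3 and 4. Laptm5, Sort1, Slc17a5, Gaa, Ids and Hpse passed in all 4 of those fits, and Lyz2 and Ppt1 in none of them.

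**Figure D5:**
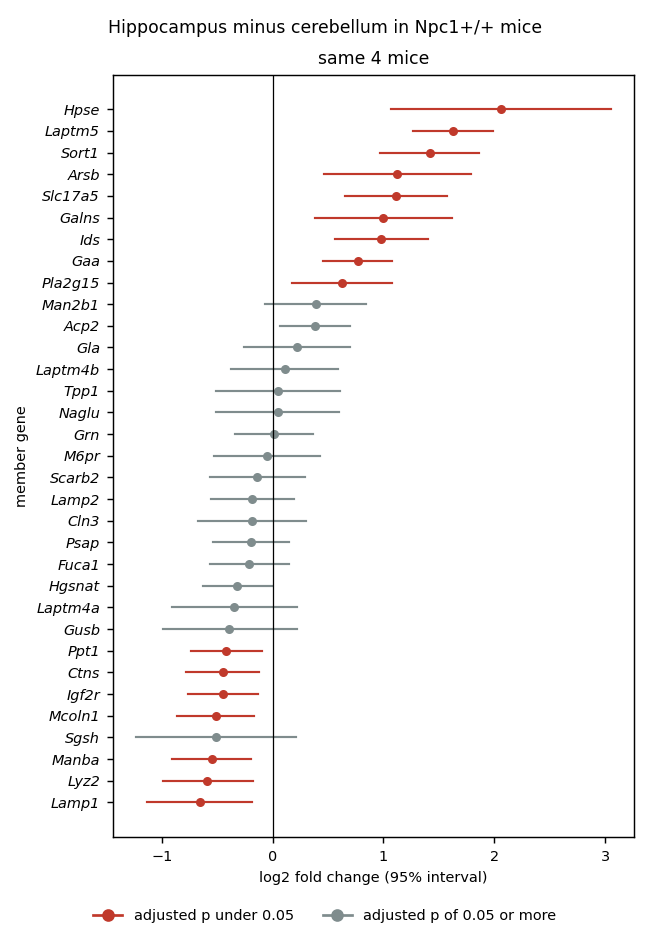
Log2 fold change of hippocampus over cerebellum in the 4 Npc1+/+ mice with its 95% interval for each of the 33 tested genes. The 16 red points passed the adjusted p, 9 above 0 and 7 below.

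The genes also differed in how steady they were among the 4 libraries of a group. Acp2 had a median coefficient of variation of 6.40% over the 6 groups, Igf2r 8.03% and Grn 9.86%, while Laptm4a had 30% and M6pr 28.1%. Laptm4a, Lamp1 and M6pr were lowest together in some libraries. These genes and libraries, and Ids below, were picked out from the same values. How often other genes run together in this way was not counted. In Npc1-/- vehicle cerebellum replicate 2 read 111, 142 and 24.1 CPM for these 3 genes, each the lowest of its group. In treated cerebellum replicate 1 read 134, 128 and 28.3 CPM, and in Npc1+/+ hippocampus replicate 1 read 137, 80.6 and 29.9 CPM, also the lowest of their groups. The hippocampi of Npc1-/- vehicle replicate 2 (193, 96.1 and 31.3 CPM) and treated replicate 1 (168, 91.6 and 36.6 CPM), from the same mice as the 2 cerebellar libraries, were again lowest for all 3 genes. Of these 5 libraries Ids was the highest of its group in 4 (667, 1142, 970 and 982 CPM), the exception being treated cerebellum replicate 1 (472 CPM). The cause was not tested.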

How the data were processed

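Per the labels' protocols, the RNA came from an extraction kit for lipid-rich tissue and was read as Ion AmpliSeq amplicons (short, usually 1 a gene) with an Ion S5 sequencer. The submitters' processing notes list FastQC 0.11.9, Trimmomatic 0.39, STAR 2.7.9a, featureCounts 2.0.3 and GRCm39, and counting was unstranded on GENCODE M34, per the file headers. The deposited values are raw counts per gene, not normalized by the authors. Symbols were matched by gene ID for 51884 IDs, and unmatched IDs held 0.21% of counts.

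The 12 libraries of a tissue went into 1 fit with sex as covariate (robust quasi-likelihood test, TMM factors, filterByExpr; edgeR 4.0.16 in R 4.3.3). The 8 Npc1+/+ libraries (tissue) and all 24 (response between tissues) were fitted with the animal as block, the latter with a tissue by sex term. Adjusted p is Benjamini-Hochberg over all genes tested, called under 0.05. The blocks come from the labels' animal numbers, and deviations of a mouse's 2 libraries correlated from -0.432 to 0.484, over 0.1 in 8 of 12. In the 4 Npc1+/+ mice, the only ones in the fit of the tissue difference, the correlations ran from -0.432 to 0.0762. CPM are counts over the TMM-scaled library total. Fitted folds adjust for sex and can differ from ratios of means. The fits were also run on simulated counts with known changes, and the outcome is not reported here. The simulation gave all genes the same spread and held no sex, animal or dissection effects. No replicate pair looked like copies of 1 library, with a chi-square of 6.99 to 46.2 per degree of freedom. The labels number the mice, and p-values measure the spread between them.

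Named were all 35 genes, those past the adjusted p with statistics, the 3 smallest p where none passed, and at most 2 genes of each other list. The genes and lists were chosen with earlier results of these data known. Alternatives were DESeq2 1.42.0, limma-voom 3.58.1, RLE factors, library totals, other filters, no sex term, a replicate block, only the groups compared, females only and each library left out. Another 4 were added once the data had been seen. PCR reads carry no molecular identifiers, and amplicons were not located. Some genes of the other lists are not reported here.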

Additional observations from a re-analysis of the deposited data

Results flagged for a closer look

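In 19 of 204 groups of 4 libraries (34 genes in 6 groups, Idua left out) 1 library lay apart from the other 3 by Dixon's criterion at 95%. For independent values with a normal spread, chance alone meets it in about 1 in 20 groups. These groups share the same 24 libraries and are not independent, and the share over all genes was not computed. High libraries were, in Npc1+/+ cerebellum, Scarb2 in replicate 1 (39 CPM, next 33.8) and Sgsh in replicate 4 (16.1, next 9.98), and in Npc1+/+ hippocampus Arsb in replicate 1 (4.61, next 3.51). In Npc1-/- vehicle cerebellum, the shallow replicate 2 was high for Arsb (10.3, next 4.17), Galns (12.3, next 7.87) and Acp2 (105, next 93.5) and low for Pla2g15 (15.4, next 20.5). The hippocampus of the same mouse was high for Sgsh (17.8, next 8.84). Treated cerebellum was high for Naglu in replicate 1 (63, next 38.1) and Igf2r in replicate 4 (77, next 67.3).

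Treated hippocampus replicate 4, the library with few hippocampal neuron markers, was high for Ppt1 (110, next 83), Gusb (8.01, next 4.96) and Aga (1.36, next 0.501 CPM). Low libraries were Grn in treated cerebellum replicate 4 (137, next 164), Laptm4b in Npc1-/- vehicle cerebellum replicate 1 (108, next 141) and Pla2g15 in Npc1+/+ hippocampus replicate 1 (24.1, next 29.4). In Npc1+/+ cerebellum Ppt1 was low in replicate 1 (90.1, next 115), Gaa in replicate 3 (98.1, next 126) and Arsb in replicate 4 (1.45, next 1.79 CPM).

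The response to Npc1 loss differed between the tissues for Laptm5 (-1.51), Hpse (-3.15) and Lyz2 (-1.60, log2 fold change in hippocampus minus cerebellum), by the test of that difference.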

How the results depend on the processing

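No called fold change turned its sign under any alternative run. After Npc1 loss, 10 genes passed in cerebellum, 6 in a fit of those 2 groups alone (421 of all genes, against 1286), and 5 to 11 with 1 library left out. In hippocampus 5 passed, 1 with the replicate block (55 of all genes, against 206), 1 in the fit of 2 groups (47), 2 in females (51), and 1 to 5 with 1 library left out. Treated against Npc1+/+ mice gave 8 to 13 in cerebellum, the tissue difference 6 to 13 and the difference of responses 0 to 3 with 1 library or mouse left out. No other setting moved these counts of the 35 genes by over 1.5 times. Over all genes, Npc1 loss gave 2249 in cerebellum and 490 in hippocampus with no sex term, 613 in cerebellum with the replicate block and 419 in hippocampus with DESeq2. Treated against Npc1+/+ mice gave 1864 and 342, with the replicate block 1171 and 195, and in hippocampus 689 with DESeq2, 179 in females and 144 without the 2 libraries that stood apart. The difference of responses gave 155, and 386 with no tissue by sex term. With 1 library or mouse left out, all-gene counts fell to 474 (Npc1-/- vehicle replicate 3) for Npc1 loss in cerebellum. In hippocampus they were 118, 102, 31 and 122 (Npc1+/+ replicates 2 and 3, Npc1-/- vehicle replicate 3, treated replicate 1). For treated mice they were 1203 and 858 in cerebellum (treated replicates 3 and 4) and 199, 178 and 130 in hippocampus (Npc1+/+ replicates 2 and 3, treated replicate 4). The tissue difference gave 2740 against 4400 without replicate 3, and the difference of responses 90 and 27 without Npc1+/+ or Npc1-/- vehicle replicate 3. Replicate numbers do not pair mice: same-numbered libraries correlated from -0.406 to 0.563, over 0.1 in 8 of 24 pairs, and 13 of 48 were best with their own number. The replicate block left 7 of 10 genes in cerebellum. Without the animal block the tissue difference had 18 genes and the difference of responses 2.

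Dipyridamole values near 0, none called under any setting, changed sign. With no filter 13 of all genes were called in cerebellum, none of the 35. In cerebellum in females the fold changes were 0.00 for Grn, -0.20 for Laptm5, -0.03 for Naglu, -0.09 for Man2b1, -0.39 for Hpse and -0.13 for Lyz2. With the replicate block Laptm5 was -0.01 and Hpse -0.04, and with limma-voom Hpse was 0.00. With 1 library left out Laptm5 ran from -0.04 to 0.15, Man2b1 from 0.00 to 0.16, Hpse from -0.12 to 0.24 and Lyz2 from -0.04 to 0.22. In hippocampus with the replicate block Grn was 0.02, Hpse 0.12 and Lyz2 0.01. With no sex term Hpse was 0.09 and Lyz2 0.16, and in females 0.02 and 0.28. Hpse was 0.00 with library totals, 0.01 with no filter and 0.00 in the fit of 2 groups. Without the 2 libraries that stood apart Man2b1 was 0.01. With 1 library left out Grn ran from -0.08 to 0.03, Hpse from -0.08 to 0.08 and Lyz2 from -0.17 to 0.21. The cause of these shifts was not tested.

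Of 420 group means under RLE factors or library totals, 7 moved by over 1 SD, all with library totals. Depth limits Hpse in Npc1+/+ cerebellum, Aga and Idua. Sex and age differ between the genotypes.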
